A study of Mus musculus with 7 samples.

Results

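Signals of 4 subunits of cytochrome c oxidase were followed across 7 arrays of mouse soleus muscle. The subunits are Cox6a2 (Entrez gene 12862), Cox4i1 (12857), Cox5b (12859) and Cox8a (12868), and they were taken by gene symbol from the platform's probe annotation. Each has 1 probe, so 4 of the 223 probes on the array are described. Every array held RNA from the soleus, a mostly slow hindlimb muscle, of a Tenascin-C deficient (Null) mouse of the 129/SV strain kept as a cage control, and the design text calls the 7 samples biological replicates. All samples fall into this 1 group, no array from a mouse with intact Tnc was analysed here, and the labels give no age. Replicate numbers only name the mice.

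Cytochrome c oxidase, complex IV of the respiratory chain, passes electrons from cytochrome c to oxygen at the inner mitochondrial membrane and pumps protons. Its catalytic core is encoded in mitochondrial DNA, and smaller subunits encoded in the nucleus surround it. Some nuclear subunits exist as a form found in heart and skeletal muscle and a form found in most tissues. Cox6a2 is the muscle form of subunit VIa, whose widely expressed counterpart is Cox6a1. Cox4i1 is the widely expressed form of subunit IV, Cox5b encodes the zinc-binding subunit Vb, and Cox8a is the widely expressed form of subunit VIII, whose muscle counterpart in the mouse is Cox8b. Of the 17 cytochrome c oxidase genes listed for this work, these 4 are on the array, and Cox6a1 and Cox8b are not among them.

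Signals are given as percent of each array's summed signal. The amount of label on a spot depends on its primer and probe, so the signals of different probes were not read as an order of transcript numbers. What can be compared is how each probe, and each ratio of 2 probes, changed from mouse to mouse. As a background level, or floor, each array's 10th percentile was used. A probe counted as clear of background where its signal passed 3 times that level. The floor was 0.15% in replicate 3 and 0.04% to 0.08% on the other 6 arrays.

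Replicate 3 stood apart from the other arrays before any result on these genes. Its median correlation with the other arrays across probes was 0.28, against 0.91 to 0.95 for the others. Its myosin signals were low. The slow myosin gene Myh7 carried 0.35% there and 7.98% to 12.8% elsewhere, and the 3 fast myosin probes together carried 0.83% against 3.85% to 8.77%. These 4 myosin probes were clear of the floor on every other array and in replicate 3 none was. Not every muscle gene was low there, as Myod1, a regulator of muscle differentiation, carried 3.11% against a mean of 0.075%, and Slc2a4, the insulin-responsive glucose transporter gene, 2.22% against 0.527%. Probes outside the marker lists were high there too. Igfbp6 carried 10.5% against a mean of 0.765%, Lama3 6.57% against 0.122%, 1 Igf1 probe 4.93% against 0.19% and Ldhc 4.38% against 0.162%. These 4 are named here after their values were seen. The 5 probes of the endothelial list summed to 9.5% in replicate 3 against 0.45% to 1.27%. Most of this came from 1 probe, as Pecam1 carried 8.36% of the array sum there. Cdh5 carried 0.60%, and Flt1, Kdr and Tek (0.16% to 0.22%) were not clear of the floor. The 3 fibroblast probes (0.49% in sum against 0.24% to 0.34%), the leukocyte probe Il1b (0.17% against 0.04% to 0.09%) and the adipocyte probe Fabp4 (0.18% against 0.34% to 0.66%) were not clear in replicate 3 either, so the higher sums of fibroblast and leukocyte probes lie at that array's higher floor. No marker was at 0, and no blood or nerve marker is on the array. The 28S rRNA probe (Rn28s1) split the remaining arrays. It carried 3.48% and 3.79% in replicates 1 and 2, whereas replicates 4 to 7 had 24.1% to 49.7%. In replicate 3 this rRNA probe carried 0.37% and was not clear of the floor, so low signals there were not limited to muscle genes. An unnamed probe outside the array sum was also low in replicate 3, at 4.86% against a mean of 87.4%. Replicates 1 and 2 had the highest correlation of any pair (r = 0.99 across probes) and the most probes within 1 recorded step of 0.01% of each other, 153 of 223. They were counted as separate mice, as the labels give them. Because replicate 3 stood apart, the signals, ratios and correlations below are given with and without it. The part of these array differences in the results was not tested, and a lower signal in bulk muscle cannot tell fewer muscle fibres from less transcript per fibre.

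On the 6 arrays without replicate 3, every oxidase probe was clear of the floor, which was so for 17.0% of all probes. By the SD of log2 signal, the muscle-type subunit varied most between these mice and Cox4i1 least.

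Cox6a2 carried at least 4.02%, in the median 5.80% and at most 9.09% of the array sum on these 6 arrays, with a mean of 6.43% ± 1.94 (SD, n = 6). The highest values, 9.09% and 8.46%, were those of replicates 1 and 2, and replicates 4 to 7 lay between 4.02% and 5.87% without overlap. Cox6a2 was the only oxidase probe with that separation, which 4.48% of all probes showed and 15.8% of the 38 probes clear on all 6 arrays. Because the 28S rRNA probe separates the same arrays, the spread of Cox6a2 and that split cannot be told apart.

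Cox4i1 ran from 1.87% through a median of 2.06% to 2.25% on them, with a mean of 2.06% ± 0.16 (SD, n = 6). The brightest muscle exceeded the dimmest 1.20-fold, against 2.26-fold for Cox6a2. Its SD on the log2 scale was 0.11, the smallest of the 38 clear probes, whose median SD was 0.34. That steadiness depended on the scale. With each array divided by its median probe the SD of Cox4i1 was 0.40, the 12th smallest of 38, and with quantile normalization it was 0.15, the 5th smallest.

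Cox5b ran from 1.5% in replicate 6 through a median of 2.35% to 2.69% in replicate 1, with a mean of 2.20% ± 0.46 (SD, n = 6). Cox8a ran from 0.32%, again in replicate 6, through a median of 0.47% to 0.56% in replicate 7, with a mean of 0.453% ± 0.097 (SD, n = 6). Replicates 4 and 6 were the 2 lowest of these arrays for both subunits. Their log2 SDs were 0.33 and 0.32, between those of Cox4i1 and Cox6a2 (0.44). On the median-probe scale the SDs were 0.65 for Cox5b, 0.62 for Cox8a and 0.79 for Cox6a2, so the order of Cox6a2 highest and Cox4i1 lowest was kept, whereas with quantile normalization Cox8a had the largest SD (0.66).

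Over all 7 arrays the means were 5.58% ± 2.85 for Cox6a2, 1.96% ± 0.31 for Cox4i1, 1.92% ± 0.84 for Cox5b and 0.413% ± 0.139 for Cox8a (SD, n = 7). Spread between mice was tested with limma against the trend of all probes at a like level. After Benjamini-Hochberg adjustment no oxidase probe was more variable than the trend (limma adjusted p = 0.885 for Cox6a2, Cox5b and Cox8a and 0.999 for Cox4i1). The background share was 0% of the 223 probes, with 17 probes at an unadjusted p under 0.05 and no oxidase probe among them. Without replicate 3 limma called 2.24% of all probes, again none of the 4 (adjusted p = 0.949 to 0.994). The trend is fitted to the same arrays, so a change shared by most bright probes is part of it and could not be called.

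**Figure D1:**
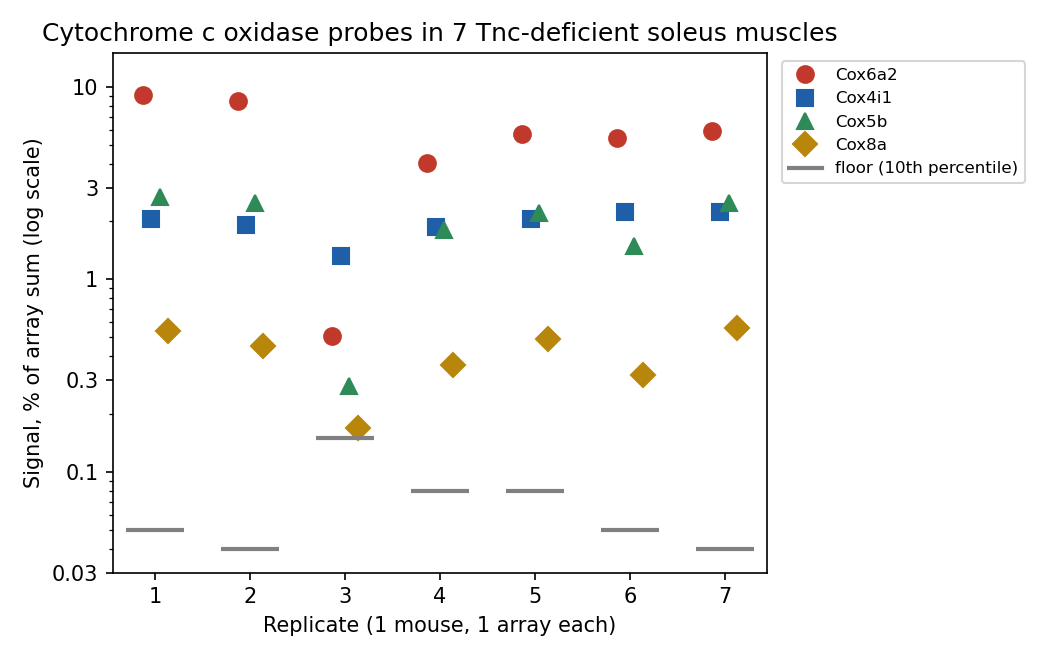
Signal of each oxidase probe by mouse, as percent of the array sum on a log axis, with 1 point per probe and array and a grey bar at the array's floor. Cox4i1 stays between 1.87% and 2.25% in 6 mice and is at 1.32% in replicate 3, where Cox6a2, Cox5b and Cox8a drop to 0.51%, 0.28% and 0.17%.

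The subunits differed most from each other in replicate 3. Cox6a2 was at 0.51% there and Cox4i1 at 1.32%, both clear of the floor, as were 13.0% of all probes. Cox5b at 0.28% and Cox8a at 0.17% were not clear there, so only bounds can be given for them. Cox6a2 and Cox4i1 were thus clear on all 7 arrays, as were 4.04% of all probes. All 4 oxidase probes were below their value on every other array, as were 14.3% of all probes and 81.6% of the 38 clear probes. Those 38 were chosen for high values on the other arrays, so a lower value in replicate 3 is partly fixed by the choice, and the share is given as a description. The geometric mean of the other arrays was 12.1-fold above replicate 3 for Cox6a2 (6.19% against 0.51%) and 1.56-fold for Cox4i1 (2.06% against 1.32%). For Cox5b it was at least 4.58-fold above it, taken against 0.47%, the lowest clear signal on that array. For Cox8a, whose mean was below that signal, no fold can be given.

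On the log2 scale replicate 3 was -3.60 from the mean of the other arrays for Cox6a2 and -0.64 for Cox4i1. Over all 223 probes the median difference was 1.20, but only 13.0% of these were clear in replicate 3, where the floor was higher. Over the 38 clear probes, chosen as above, the median difference was -1.83, and 33 of them fell. By this difference Cox4i1 ranked 7th from the highest of the 38 and Cox6a2 32nd. In percent, Cox4i1 kept 64.0% of its mean signal on the other arrays and Cox6a2 7.93%. With each array's floor subtracted these shares were 58.3% and 5.65%. Among the 18 probes with a mean of at least 1% on the other arrays, leaving out Rn28s1 and an unnamed probe outside the array sum, Cox4i1 was the only one still above 1% in replicate 3. The next highest share kept was 23.1%, for Igf2, a growth factor gene named here after its value was seen. These probes too were chosen by their level on the arrays set against replicate 3, so lower values there are built into the choice and probes high only in replicate 3 could not enter. The cut at 1% also left out dimmer probes that did not fall, such as Slc2a4 (2.22% in replicate 3 against a mean of 0.527%).

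Replicate 3 is 1 array, and none of these differences has a replicate check. Quantile normalization turned the sign for Cox4i1, to 0.19 on the log2 scale, and left Cox6a2 at -3.35.

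**Figure D2:**
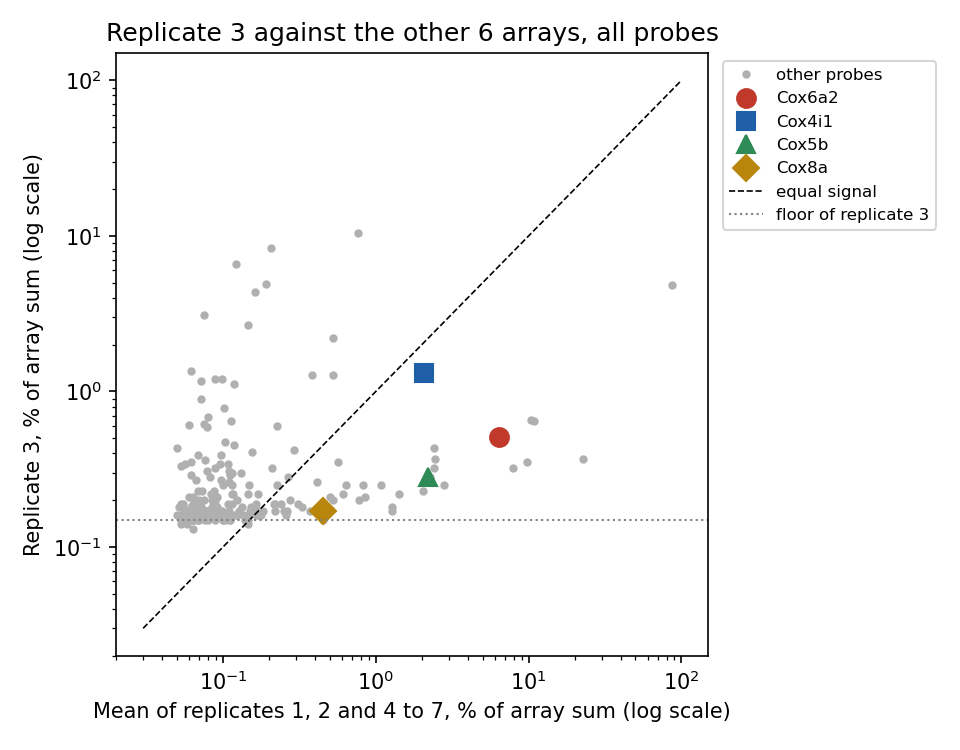
Replicate 3 against the mean of the other 6 arrays for all 223 probes, both as percent of the array sum on log axes, with the oxidase probes in colour, equal signal as a dashed line and the floor of replicate 3 dotted. Cox4i1 lies close under the line of equal signal (1.32% against 2.06%), while Cox6a2 (0.51% against 6.43%) and Cox5b (0.28% against 2.20%) lie with the other bright probes well below it, and Cox8a (0.17%) lies near the floor.

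Ratios of 2 probes on the same array do not depend on a factor by which that array is scaled. The ratio of the muscle-type Cox6a2 to the widely expressed Cox4i1 was 4.41 in both replicates 1 and 2 and lay between 2.15 and 2.79 in replicates 4 to 7. In replicate 3 it was 0.39, which lies below the range of the others. The mean log2 ratio was 1.59 ± 0.45 without replicate 3 (SD, n = 6) and 1.17 ± 1.19 with it (SD, n = 7). With the floor subtracted, the ratio in replicate 3 was 0.31 against 2.20 to 4.50 on the other arrays.

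Without replicate 3, Cox6a2 over Cox5b varied less. It lay between 2.23 and 3.61 on the 6 arrays, with the highest value in replicate 6, and the recorded value in replicate 3 was 1.82. Cox6a2 over Cox8a lay between 10.5 and 18.8, and its recorded value in replicate 3 was 3.0. As Cox5b and Cox8a were not clear of the floor in replicate 3, ratios with either of them there are recorded values that include background, and their place against the other arrays is not read. Replicates 1, 2 and 6 had the 3 highest values of both ratios on the 6 arrays. The mean log2 ratios were 1.52 ± 0.30 to Cox5b and 3.80 ± 0.37 to Cox8a without replicate 3 (SD, n = 6), and 1.43 ± 0.37 and 3.48 ± 0.90 with it (SD, n = 7).

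Without replicate 3, Cox5b and Cox8a, both widely expressed, kept the steadiest ratio of the 6 pairs. Their ratio was 4.98, 5.56, 5.0, 4.49, 4.69 and 4.46 in replicates 1, 2 and 4 to 7, a 1.24-fold range, with a log2 SD of 0.12. Among all 703 pairs of the 38 clear probes, only 4 pairs (0.569%) had a smaller SD of the log2 ratio on these arrays, and the median pair had 0.53. With replicate 3, where the recorded ratio was 1.65, the SD was 0.60, larger than for Cox6a2 over Cox5b (0.37) and Cox4i1 over Cox8a (0.41). The log2 ratio of Cox4i1 had a mean of -0.07 ± 0.36 to Cox5b and 2.21 ± 0.33 to Cox8a without replicate 3 (SD, n = 6), and 0.26 ± 0.93 and 2.32 ± 0.41 with it (SD, n = 7).

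**Figure D3:**
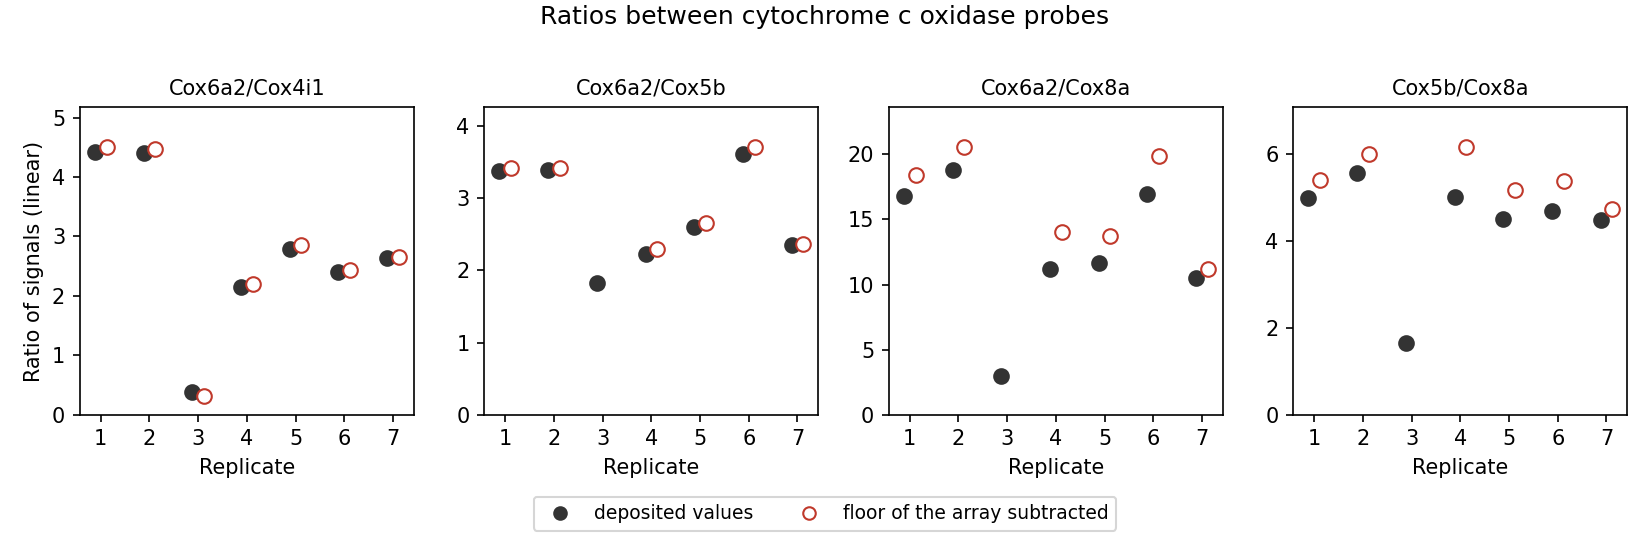
Ratios of the signals of 2 oxidase probes on the same array, by mouse, from the deposited values (filled) and after subtraction of the array's floor (open), on linear axes that start at 0. Cox6a2/Cox4i1 is lowest in replicate 3 either way (0.39 and 0.31), and for ratios with Cox5b or Cox8a no floor-subtracted point is drawn there, since these probes were not clear of it. Cox5b/Cox8a lies between 4.46 and 5.56 in the other mice by the deposited values.

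The sequences around the transcription starts of Cox5b and Cox8a are shown. Of the 4 genes, these 2 were matched in the RefSeq promoter table of build GRCm38.p6, and Cox6a2 and Cox4i1 were not. The windows thus cannot be compared with those of the other subunits, and any tie to the ratio of Cox5b to Cox8a was not tested. Both windows hold 250 bases before the annotated start and 50 after it. The window of Cox5b is chr1:36691237-36691536 on the plus strand and that of Cox8a chr19:7217567-7217866 on the minus strand, both written 5′ to 3′ in the direction of the gene. Capitals mark CGGAAG, the core bound by ETS factors such as GABP (also named NRF-2), on either strand, so that CTTCCG is its reverse, and TGCGCA, which is its own reverse and forms part of the NRF-1 recognition sequence. Both factors are textbook regulators of nuclear genes for the respiratory chain.
Cox5b: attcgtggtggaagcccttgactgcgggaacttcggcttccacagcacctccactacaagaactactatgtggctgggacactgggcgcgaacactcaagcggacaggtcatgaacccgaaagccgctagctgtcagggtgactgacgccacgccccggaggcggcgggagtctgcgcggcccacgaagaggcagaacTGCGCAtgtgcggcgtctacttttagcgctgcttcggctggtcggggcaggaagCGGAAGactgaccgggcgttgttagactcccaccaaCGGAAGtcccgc
Cox8a: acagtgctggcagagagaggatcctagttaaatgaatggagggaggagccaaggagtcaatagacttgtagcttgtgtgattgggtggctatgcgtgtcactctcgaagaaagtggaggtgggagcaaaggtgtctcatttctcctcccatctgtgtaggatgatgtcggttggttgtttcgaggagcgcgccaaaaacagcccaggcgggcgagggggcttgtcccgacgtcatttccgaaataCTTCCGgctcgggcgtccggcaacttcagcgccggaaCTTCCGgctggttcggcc
Each window holds CGGAAG at 2 places, starting at bases 3 and 39 after the start of Cox5b and, on the other strand, at 5 bases before and 33 after the start of Cox8a. Of 32851 windows of this length in the table, 16.9% held it at least at 1 place and 4.15% at 2 or more. TGCGCA stands at 1 place in Cox5b, 52 bases before the start, and at none in Cox8a, and 7.76% of windows hold it. These matches describe the letters of the windows, and binding was not measured.

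Co-variation was tested on log2 signals by the two-sided exact permutation test (5040 pairings), with p adjusted over the 6 pairs of oxidase genes. Over 7 arrays 3 pairs passed. The share of other probe pairs that would pass over 7 arrays was not computed. As 81.6% of the 38 clear probes were lowest in replicate 3, the passes are not read as particular to these subunits. Cox5b and Cox8a had r = 0.96 (exact permutation p = 0.0020, adjusted 0.012) and rho = 0.88 (exact permutation p = 0.015, adjusted 0.045). Cox6a2 and Cox5b had r = 0.98 (exact permutation p = 0.0071, adjusted 0.021) and rho = 0.95 (exact permutation p = 0.0032, adjusted 0.019). Cox6a2 and Cox8a had r = 0.91 (exact permutation p = 0.018, adjusted 0.037) and rho = 0.79 (exact permutation p = 0.048, adjusted 0.096). The 3 pairs with Cox4i1 had r between 0.82 and 0.89 and did not pass (exact permutation p adjusted 0.082 to 0.085), and their rho was 0.34 to 0.46.

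These values rest in large part on replicate 3, where Cox5b and Cox8a entered at recorded values near background. Without the 2 arrays farthest from the median of the first gene, r was 0.86 for Cox5b and Cox8a (without replicates 3 and 6), 0.62 for Cox6a2 and Cox5b and 0.43 for Cox6a2 and Cox8a (both without replicates 1 and 3). Without replicate 3 alone, no pair passed. Cox5b and Cox8a then had r = 0.93 (exact permutation p = 0.014, adjusted 0.083, n = 6) and rho = 0.81 (exact permutation p = 0.072). This r rested on replicates 4 and 6, the 2 lowest for both genes. It was 0.37 when these 2 were left out along with replicate 3. Cox6a2 had r = 0.72 with Cox5b (exact permutation p = 0.11, adjusted 0.33, n = 6) and 0.57 with Cox8a (exact permutation p = 0.23, adjusted 0.46, n = 6). Cox4i1 had r = 0.04 with Cox6a2, -0.16 with Cox5b and 0.10 with Cox8a (exact permutation p adjusted 0.92 for each, n = 6). Only Cox5b with Cox8a reached r of at least 0.9 on these arrays, which 4.13% of the 703 pairs of clear probes did. The median of those pairs was r = 0.02.

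Over the 6 arrays without replicate 3, the low r of Cox4i1 with the other subunits was seen on the deposited scale and not on the median-probe scale. On the deposited scale it also depended on single arrays. With replicates 1 and 2 left out as well, r of Cox4i1 with Cox6a2 was 0.83. With replicates 4 and 6 left out instead, r of Cox4i1 was 0.91 with Cox8a and 0.04 with Cox5b. With each array divided by its median probe and replicate 3 left out, Cox4i1 had r = 0.92 with Cox6a2, 0.86 with Cox5b and 0.87 with Cox8a, and all 6 pairs passed (exact permutation p adjusted 0.019 to 0.033, n = 6). The median of the 703 pairs was 0.56 on that scale. Of these pairs, 9.96% had a higher r than Cox4i1 with Cox6a2, 19.8% than with Cox5b and 18.5% than with Cox8a. The share of them that would pass was not computed. The median probe carried 0.07% to 0.13% on these arrays, near their floor of 0.04% to 0.08%. This scaling thus divides every probe by a shared signal near background, and its part in the higher r was not tested. Within the parts given by the 28S rRNA signal, with each part's mean removed, Cox5b and Cox8a had r = 0.98 (exact permutation p = 0.042 over 48 pairings, adjusted 0.25, n = 6). Cox6a2 then had r = 0.83 with Cox4i1, 0.45 with Cox5b and 0.59 with Cox8a (exact permutation p = 0.10, 0.58 and 0.38, n = 6). The smallest p such pairings can give is 0.021.

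**Figure D4:**
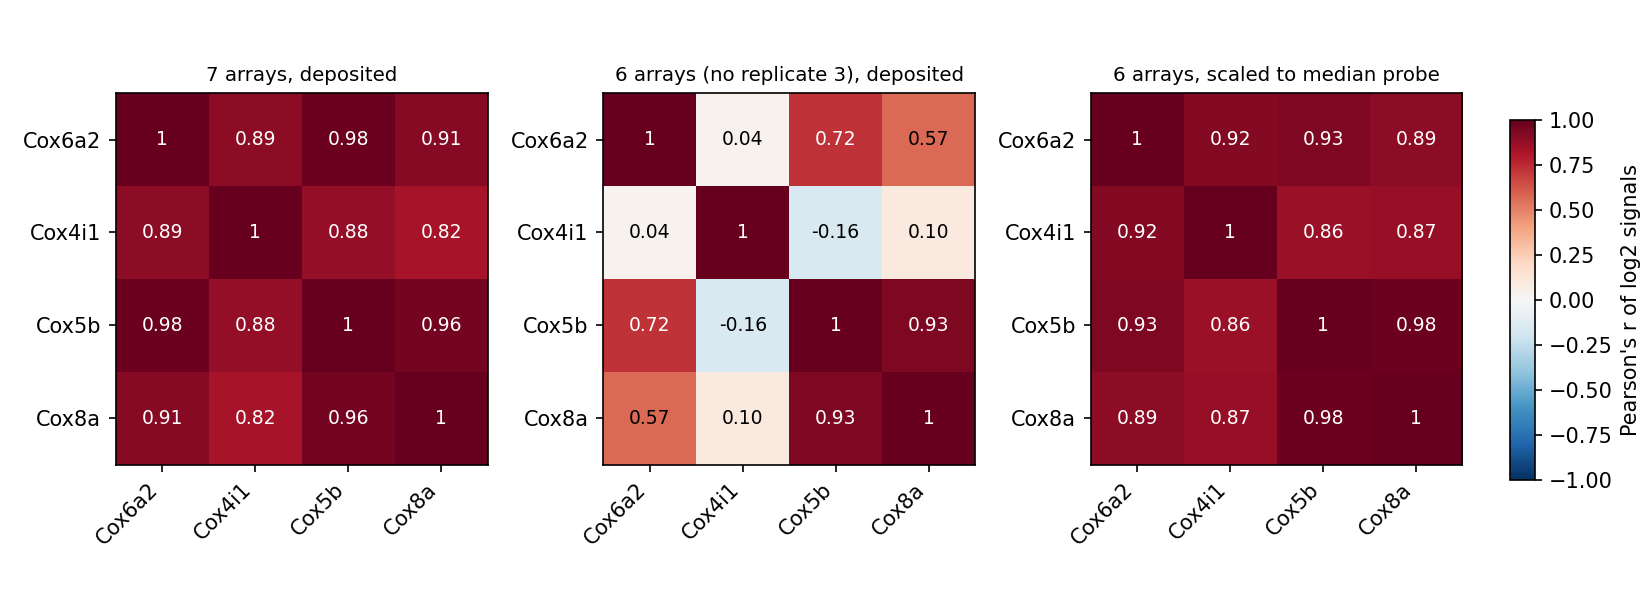
Pearson's r between log2 signals of the oxidase probes over 7 arrays, over the 6 arrays without replicate 3, and over those 6 arrays after scaling to the median probe, on 1 colour scale from -1 to 1. Cox4i1 goes from r of 0.82 to 0.89 with the other subunits (left) to -0.16 to 0.10 (middle) and 0.86 to 0.92 (right), while Cox5b with Cox8a is 0.96, 0.93 and 0.98.

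The oxidase probes were then set against 10 fibre, mitochondrial and glycolytic probes, a family of 40 relations over 7 arrays, of which 9 passed after adjustment. For this count too no share over other probe pairs was computed, and it is not read as particular to these subunits. Cox6a2 passed with 5, namely the fast myosin genes Myh2 (r = 0.99, adjusted p = 0.016), Myh1 (0.97, 0.026) and Myh4 (0.94, 0.046), the glycolytic gene Gapdh (0.99, 0.026) and Tfam, a mitochondrial transcription factor (-0.85, 0.026), by the exact permutation test. Cox5b passed with Myh2 (r = 0.98, adjusted p = 0.026), Gapdh (0.99, 0.016) and Tfam (-0.82, 0.042), and Cox8a with Gapdh (0.94, 0.034), by the same exact permutation test. Cox4i1 passed with none of the 10. Its highest r was with Mb, which encodes the oxygen store myoglobin (r = 0.94, exact permutation p adjusted 0.065). No oxidase probe passed with Mb, Myh7, Pdha1 (a subunit of pyruvate dehydrogenase), the glycolytic gene Aldoa or the uncoupling protein gene Ucp3. In rank terms, rho for these 9 relations was 0.94, 0.82, 0.82, 0.96 and -0.93 for Cox6a2, 0.87, 0.99 and -0.86 for Cox5b and 0.82 for Cox8a, in the same order, and by rank only Cox5b with Gapdh passed (exact permutation p adjusted 0.032). Without the 2 arrays farthest from the median of the oxidase gene, r for these relations was 0.42 to 0.89, and for Tfam -0.83 with Cox6a2 and -0.96 with Cox5b. Tfam was not clear of the floor on any array, with 0.05% to 0.12% on 6 arrays and 0.17% in replicate 3, so its relations, both lost with the floor subtracted (r = -0.41 and -0.38, exact permutation p adjusted 0.44 and 0.45), compare the oxidase probes with a signal near background.

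None of the 40 relations passed without replicate 3, and 6 had an unadjusted exact permutation p under 0.05. With 6 arrays the smallest possible p is 0.0014, and 1 relation alone could not pass over 40. The largest positive r among these arrays were Cox5b with Gapdh (0.94, exact permutation p adjusted 0.11), Cox6a2 with Myh2 (0.91, adjusted 0.11), Cox6a2 with Myh1 (0.84, adjusted 0.33) and Cox6a2 with Gapdh (0.82, adjusted 0.31). The largest negative values were with Ucp3, at -0.91 for Cox6a2 and -0.87 for Cox5b (exact permutation p adjusted 0.20 for both). Cox6a2 had r = 0.17 with Myh7 and -0.07 with Mb (exact permutation p adjusted 0.99 for both). Within the parts given by 28S rRNA, r was 0.96 for Cox5b with Gapdh and 0.52, 0.24 and 0.30 for Cox6a2 with Myh2, Myh1 and Gapdh (exact permutation p adjusted 0.63 to 0.92). Within these parts r was thus lower for Cox6a2 with the fast myosin probes than over all 6 arrays, and it was not for Cox5b with Gapdh. For Cox6a2 with Myh7 and Mb it was higher there, at 0.65 and 0.82 (exact permutation p adjusted 0.79 and 0.63). On the median-probe scale without replicate 3, Cox6a2 passed with Myh7 (r = 0.88) and Mb (0.91) as well as Myh2 (0.98), Myh1 (0.94) and Gapdh (0.94). It did not pass there with Myh4 (0.89, exact permutation p adjusted 0.0503).

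Other genes of mitochondrial energy use on the array showed the following values. No probe of the 13 further respiratory chain genes listed is present. Of 8 genes of the citric acid cycle and pyruvate entry, 2 are present, Mdh2 (malate dehydrogenase) at 0.525% ± 0.088 and Pdha1 at 0.830% ± 0.148 on the 6 arrays (SD, n = 6), with 0.20% and 0.25% in replicate 3. Of 7 regulators 3 are present. Ucp3 carried 0.265% ± 0.060, and Tfam and Ppara, a receptor that controls fatty acid oxidation genes, carried 0.073% ± 0.029 and 0.10% ± 0.022 (SD, n = 6). In replicate 3 these 3 were at 0.28%, 0.17% and 0.25%. Limma called none of these 5 probes more variable than the trend, with or without replicate 3. The median log2 SD over 6 arrays was 0.33 for the 4 oxidase probes, 0.26 for the citric acid cycle list, 0.34 for the regulators and 0.44 for all probes. Cyct, which encodes the testis form of cytochrome c, the electron donor of the oxidase, had a signal of 0.10% ± 0.042 (SD, n = 6) and did not clear the floor on any array.

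Probes with the pattern most like each subunit were ranked by r among the other 204 named probes, as a description with no test. For Cox6a2 over 7 arrays they were Des, the muscle intermediate filament gene (r = 0.99), Myh2 (0.99), Gapdh (0.99), Cox5b (0.98) and the ribosomal protein gene Rps29 (0.98). Without replicate 3 they were Des (0.94), Myh2 (0.91), Cited2, a transcriptional co-regulator (0.84), Myh1 (0.84) and Gapdh (0.82). Des carried 3.20% and 3.09% in replicates 1 and 2, 1.58% to 2.34% in replicates 4 to 7 and 0.32% in replicate 3. The log2 ratio of Cox6a2 to Des had an SD of 0.15 on the 6 arrays, the smallest for Cox6a2 with any named probe. Within the 28S parts r with Des was 0.77, and with Cited2, which is not clear on all 6 arrays, it was -0.83.

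Cox5b and Cox8a shared most of their list. Without replicate 3 the probes most like Cox5b were Gapdh (r = 0.94), Cox8a (0.93), the glycolytic gene Pgk1 (0.81), Rps29 (0.80) and Ywhaz, a 14-3-3 protein gene (0.78). Those most like Cox8a were Cox5b (0.93), Pgk1 (0.93), Rps29 (0.79), Ldhb, the heart form of lactate dehydrogenase (0.77), and Gapdh (0.77). Over 7 arrays Cox5b had Gapdh (0.99), Pgk1 (0.99), Myh2 (0.98), Rps29 (0.98) and Cox6a2 (0.98). Cox8a had Cox5b (0.96), Pgk1 (0.96), Rps29 (0.95), Ldhb (0.95) and Gapdh (0.94). Within the 28S parts r was 0.87 for Cox5b with Pgk1 and 0.93 for Cox8a with Pgk1.

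Without replicate 3 the list of Cox4i1 held Fabp4, a fatty acid binding protein gene of adipocytes and endothelium (r = 0.79), Timp2, a protease inhibitor gene (0.76), Car3, a carbonic anhydrase gene of slow fibres (0.75), the muscle transcription factor gene Mef2c (0.71) and Acadl, an enzyme of fatty acid oxidation (0.64). Over 7 arrays it held Car3 (0.95), Mef2c (0.95), Fabp4 (0.94), Ldhb (0.94), which is also in the list of Cox8a, and Mb (0.94). As Cox4i1 varied so little on the 6 arrays, these r rest on small differences, and on the median-probe scale none of the 5 remained in its list without replicate 3, against 2 of 5 for Cox6a2, 3 for Cox5b and 4 for Cox8a. By the SD of the log2 ratio over 6 arrays the nearest probe to Cox4i1 was Mb (0.13).

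**Figure D5:**
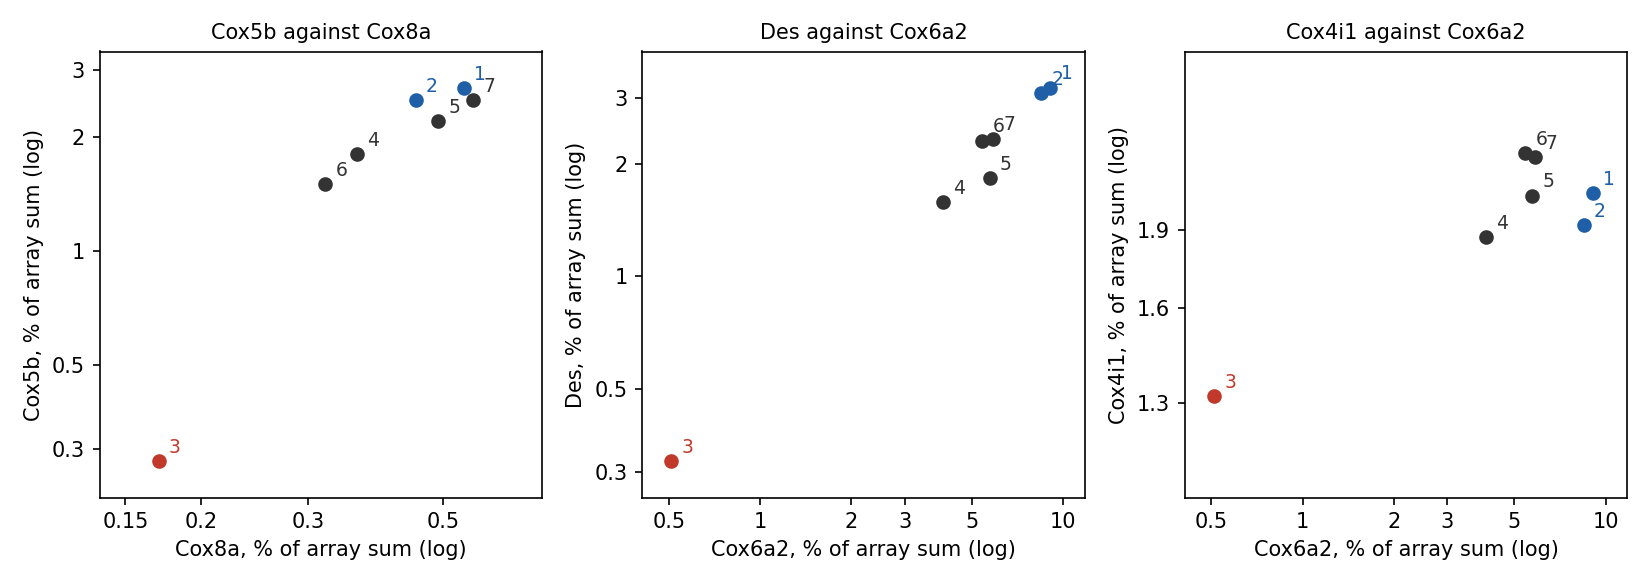
Signals of 3 pairs of probes by mouse, as percent of the array sum on log axes, with the replicate number beside each point, replicate 3 in red and replicates 1 and 2, which have the low 28S rRNA signal, in blue. Over the 6 other arrays Cox5b and Cox8a have r = 0.93, with replicates 4 and 6 lowest, and r = 0.37 when these 2 are left out as well. Des and Cox6a2 have r = 0.94 on the 6 arrays, with replicates 1 and 2 at the top. Cox4i1 and Cox6a2 have r = 0.04 on the 6 arrays, and r = 0.83 when replicates 1 and 2 are left out as well.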

How the data were processed

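Per the labels' protocols, total RNA came from cryosections of the muscle belly, and 4 µg were reverse transcribed with gene-specific primers and a radioactive nucleotide. The sources used here name no scanner and no background treatment. Values were deposited as linear intensity for 223 probes in steps of 0.01% of the array sum (1 of 1561 values, for Car3, lies off these steps), and apart from Rn28s1 and 1 unnamed probe they add up to 0.998 to 1.00 on an array. They are thus shares that constrain each other. The number of arrays limits the precision.

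Tests used log2 of these values, with no scaling added. The spread of all 223 probes was tested in limma 3.58.1 (R 4.3.3) with an intercept-only design and a one-sided F test against a robust variance trend, with Benjamini-Hochberg adjustment at 0.05. The test was also run on simulated independent normal noise around that trend. Such noise lacks the changes shared between probes of an array, so it does not show how the test behaves on these data. Exact permutation tests, ratios and ranks were computed in Python 3.11.15. The floor criterion of 3 times the 10th percentile follows an earlier description of these data. Named genes are the 4 subunits, 10 reference probes, the 5 probes most like each subunit over 7 and over 6 arrays, and listed respiratory chain and citric acid cycle genes. The members, lists and rules were chosen with earlier results of these data known. Alternatives were median-probe scaling, quantile normalization, floor subtraction, a pseudocount of 0.05%, a filter on dim probes, a fit without trend, the 28S split and leaving out each replicate. Median-probe scaling without replicate 3, leaving out replicates 1 and 2 together, and the SD of log2 ratios were added after seeing the data.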

Additional observations from a re-analysis of the deposited data

Results flagged for a closer look

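Each value here was picked out because 1 of 7 arrays lay far from the rest, measured as the gap to the nearest array divided by the whole range. The 4 signals and the 6 log2 ratios were looked at. Chance picks out about 1 in 20 such groups where no array stands apart from the others. In all 5 cases the array was replicate 3, which was already known to stand apart. The 5 cases thus rest on the same array, are not independent and cannot be set against that chance share. No share over other probe pairs is given for the ratios. Its Cox4i1 signal was lowest (0.591), because the other 6 values lie close together, and 2.69% of all probes were picked out with replicate 3 lowest. The signals of Cox6a2 (0.409), Cox5b (0.506) and Cox8a (0.385) were lowest there too and were not far enough from the rest to be picked out. The log2 ratios Cox6a2/Cox4i1 (0.705), Cox6a2/Cox8a (0.682) and Cox5b/Cox8a (0.820) were lowest in replicate 3 and Cox4i1/Cox5b (0.630) was highest. As Cox5b and Cox8a were not clear of the floor in replicate 3, the ratios with either of them include background there. The part of the muscle and endothelial marker signals in these values was not tested.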

How the results depend on the processing

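Limma called none of the 4 oxidase probes under any alternative. It called 0 probes in all except without replicate 3, so that leaving out 1 replicate gave 0 to 5 calls. The r between subunits ranged, over the 7 fits that leave out 1 replicate, from 0.72 to 0.99 for Cox6a2 with Cox5b, 0.57 to 0.96 for Cox6a2 with Cox8a, 0.93 to 0.97 for Cox5b with Cox8a, 0.04 to 0.94 for Cox6a2 with Cox4i1, -0.16 to 0.96 for Cox4i1 with Cox5b and 0.10 to 0.99 for Cox4i1 with Cox8a. Cox5b with Cox8a lost its pass only without replicate 3, Cox6a2 with Cox5b without replicates 1 or 3, and Cox6a2 with Cox8a without replicates 1, 3 or 4, whereas Cox4i1 passed with Cox5b and Cox8a without replicate 6 (exact permutation adjusted p = 0.030 and 0.0083). Median-probe scaling over 7 arrays let the pairs of Cox4i1 pass, with r = 0.97 for Cox6a2, 0.96 for Cox5b and 0.96 for Cox8a, and did so too without replicate 3 (0.92, 0.86 and 0.87). Quantile normalization ended the pass of Cox6a2 with Cox5b (r = 0.94, exact permutation adjusted p = 0.086) and made r of Cox4i1 negative with Cox6a2 (-0.57), Cox5b (-0.55) and Cox8a (-0.65), none of which passed before or after. Within the 28S parts no pair passed (Cox6a2 with Cox5b 0.45, Cox6a2 with Cox8a 0.59, Cox5b with Cox8a 0.98), and those pairings are too few for 1 pair alone to pass after adjustment.

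Of the 40 relations with reference probes 9 passed, against 38 with median-probe scaling, 14 with that scaling without replicate 3, 11 with quantile normalization, 6 with the floor subtracted, 0 within the 28S parts and 0 to 9 when 1 replicate was left out (0 without replicates 1, 2, 3 or 7, 3 without replicate 4). Floor subtraction ended both Tfam relations and that of Cox6a2 with Myh4 (exact permutation adjusted p = 0.059), and quantile normalization that of Cox5b with Gapdh (0.085) and both Tfam relations. The r with Ucp3, negative for all 4 subunits, turned positive with median-probe scaling for Cox6a2 (0.88), Cox4i1 (0.87), Cox5b (0.86) and Cox8a (0.79), with quantile normalization for Cox6a2 (0.80), Cox5b (0.82) and Cox8a (0.88), and with the floor subtracted for all 4 (0.38 to 0.54), and Cox6a2 with Myh4 was -0.061 within the 28S parts. The log2 difference of replicate 3 moved with median-probe scaling to -4.59 for Cox6a2, -1.63 for Cox4i1, -3.93 for Cox5b and -2.37 for Cox8a. With the floor subtracted it was -4.09, -0.77, -4.01 and -4.27 (Cox5b and Cox8a being near background there), and with quantile normalization 0.19 for Cox4i1, -3.45 for Cox5b and -2.31 for Cox8a. Without replicates 1 and 2 it was -3.35, -0.67, -2.81 and -1.31. The cause of these changes was not tested. The mean ratios of Cox6a2 and the mean signals moved by less than their SD. No paired analysis was possible because the samples form 1 group.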
